A study of Mus musculus with 29 samples.

Results

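The C70 effect on day 2 of differentiation was compared with its effect on day 1 in 3T3-L1 preadipocytes, mouse fibroblasts that can be induced to become white fat cells. KDM5-C70 (C70) is a compound that inhibits KDM5 demethylases, the enzymes that remove methyl groups from lysine 4 of histone H3. The comparison used 14 of the 29 samples of the series: 3 vehicle and 4 C70 samples at day 1, and 3 vehicle and 4 C70 samples at day 2. C70 at 10 µM, or DMSO as the vehicle, was present from day -2, when the cells were confluent, to day 0, so neither agent was added on the days compared. All cells, vehicle included, were in differentiation medium from day 0 to day 2, which contains dexamethasone, insulin, isobutylmethylxanthine and a PPARγ agonist. The cells were from a single established line, and the labels number the replicates without saying that they were separate cultures. P values therefore measure the spread between samples of a group, estimated from all 29 samples in 1 fit.

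For each gene the interaction was the log2 difference between C70 and vehicle at day 2 minus the same difference at day 1. An interaction above 0 means that C70 moved the gene upward between the days relative to vehicle, which includes a gene whose reduction by C70 became smaller. A gene was called when edgeR's quasi-likelihood test gave it a P value under 0.05 after Benjamini-Hochberg adjustment and its log2 change was over 0.32 in size. Levels are CPM (counts divided by the scaled library size) and are not corrected for gene length.

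In the first days after induction, confluent 3T3-L1 cells re-enter the cell cycle for a short wave of division and then switch on the adipocyte program. C/EBP and PPARγ transcription factors induce lipid uptake and storage genes, SREBP factors induce the enzymes of fatty acid and sterol synthesis, and preadipocyte genes such as Dlk1 and those for fibrillar collagens are turned down. The comparison asks which effects of a treatment that ended at day 0 appeared or grew only in the second day of this program.

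Total counts in the 14 libraries ranged from 16320275 to 23768093. In 18 replicate pairs, chi-square divided by its degrees of freedom was 2.90 to 13.95, above the value for counting noise alone. By this measure vehicle replicate 1 was the farther one on both days. Its pairs had 9.27 to 13.95, against 3.68 at day 1 and 3.62 at day 2 for replicates 2 and 3. By the median absolute log2 difference from its group it was the farthest at day 1 (0.0846). At day 2 it was the nearest (0.0621, against 0.0712 and 0.0678 for replicates 2 and 3). Without it, 1565 (day 1) and 1572 (day 2) interactions were called in place of the 1656 described next. Of these, 1432 and 1457 were among the 1656. Without vehicle replicate 2 or 3 of day 1 there were 1525 and 1471 calls, with 1424 and 1398 among the 1656. Without vehicle replicate 2 or 3 of day 2 there were 1439 and 1513 calls, with 1372 and 1424 among them. The labels call the cells adipocytes. All 7 adipocyte markers listed (Pparg, Cebpa, Fabp4, Plin1, Adipoq, Lpl and Cd36) and all 6 preadipocyte or fibroblast markers (Dlk1, Pdgfra, Pdgfrb, Thy1, Col1a1 and Col3a1) were in the table. Adipoq, an adipokine of mature fat cells, had a mean of 14.6 CPM in vehicle samples at day 1 and 493 CPM at day 2, so the libraries span the turning on of that marker. Of markers of other cell types, 2 of 10 macrophage, 1 of 8 endothelial, 1 of 8 skeletal muscle and 0 of 7 brown adipocyte genes were in the table. Among them Cd68, a lysosomal protein of macrophages and other cells, had mean levels of 1.88 and 14.1 CPM in vehicle and C70 samples at day 1 and 1.59 and 6.68 CPM at day 2, and the muscle filament gene Des had 2.14 and 6.12 CPM at day 1 and 3.56 and 4.96 CPM at day 2. The other marker genes in the table were Cd14, at 2.62 and 4.15 CPM at day 1 and 2.06 and 2.91 CPM at day 2, and Egfl7, at 1.71 and 2.92 CPM and 1.48 and 2.41 CPM. Cd68 and Des had a called negative interaction, and the part of these markers in other results was not tested.

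The interaction was called for 1656 of 11959 genes, 13.8% of those tested, with 880 above 0 (7.36%) and 776 below 0 (6.49%). The largest positive interactions among genes above the median of expression were those of Crocc2 (1.90 ± 0.12, log2 ± SE), a ciliary rootlet gene, and Aqp1 (1.81 ± 0.17), a water channel. The largest negative ones were those of Cdsn (-2.81 ± 0.20), a protein of cornified cell junctions, Apol6 (-1.65 ± 0.19), Prelp (-1.65 ± 0.15), a proteoglycan, and Trib3 (-1.64 ± 0.27), a stress-induced pseudokinase. Expression was averaged over all 29 samples for this ranking, and the genes with negative values were low on the days compared: group means were 0.821 to 6.66 CPM for Cdsn, 1.87 to 13.3 CPM for Apol6, 4.34 to 27.1 CPM for Prelp and 2.22 to 27.1 CPM for Trib3. The median interaction over all genes was 0.01, and 90% of genes lay between the values of -0.53 and 0.49 on the log2 scale. On the adjusted P value alone, without the threshold on size, 19.8% of genes passed. The C70 effect itself was called for 21.4% of genes at day 1 and 30.5% at day 2.

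Of the 1656 genes, 711 had a C70 effect called at day 2 and not at day 1 (331 with a positive interaction and 380 with a negative one), and 400 had an effect called on both days in the same direction that was larger at day 2 (320 and 80). A further 251 had an effect called at day 1 alone, 53 had one that was smaller at day 2, 43 had effects called on both days in opposite directions, and 198 passed on neither day alone. A single day's effect that misses the thresholds is not shown to be absent. With each day judged on the adjusted P value alone, the genes called at day 2 alone numbered 258 with a positive interaction and 362 with a negative one, and those with a larger effect at day 2 numbered 423 and 132. Those with effects in opposite directions then numbered 52 and 82, and those that passed on neither day 7 and 15.

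**Figure D1:**
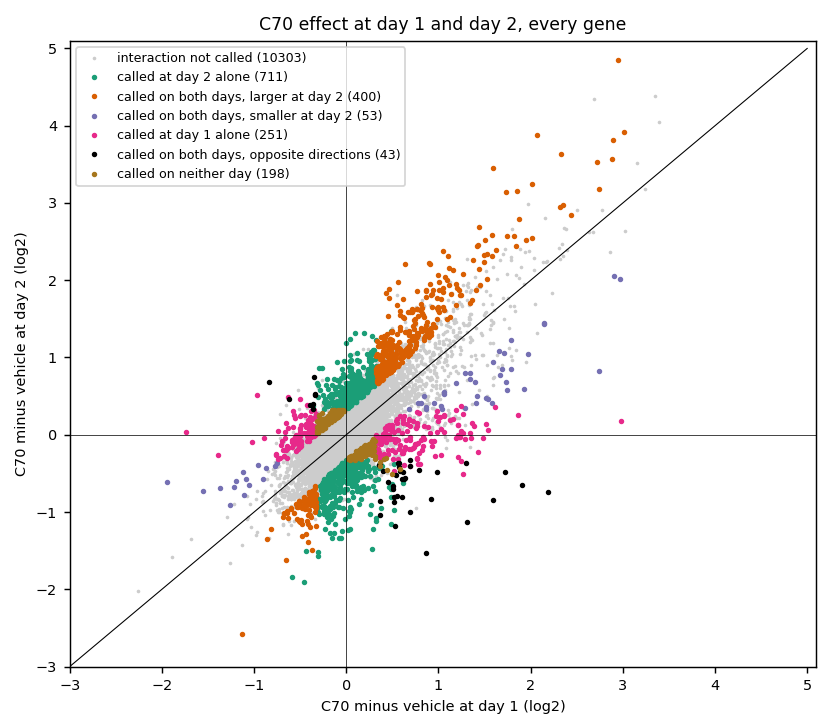
Log2 difference between C70 and vehicle at day 1 (x axis) and day 2 (y axis) for all 11959 genes, with 1 point per gene. Grey points are genes whose interaction was not called, colours give the 6 classes of the 1656 called genes by the day on which the C70 effect passed the thresholds, and the line marks equal effects. The 400 genes with a larger effect at day 2 lie mostly at the upper right, and 43 black points changed direction.

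The same values can be read as a change from day 1 to day 2 in each treatment. The vehicle change is a part of the interaction, so this is another view of the same numbers and not separate evidence. Of the 776 genes with a negative interaction, 325 rose in vehicle and rose less after C70, 251 rose in vehicle without a called change after C70, and 105 fell after C70 without a called change in vehicle. Of the 880 with a positive interaction, 432 fell in vehicle and fell less after C70, 260 fell in vehicle without a called change after C70, and 91 rose after C70 without a called change in vehicle. The change from day 1 to day 2 was called for 44.3% of genes in vehicle and 36.9% after C70, where 18.8% rose.

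**Figure D2:**
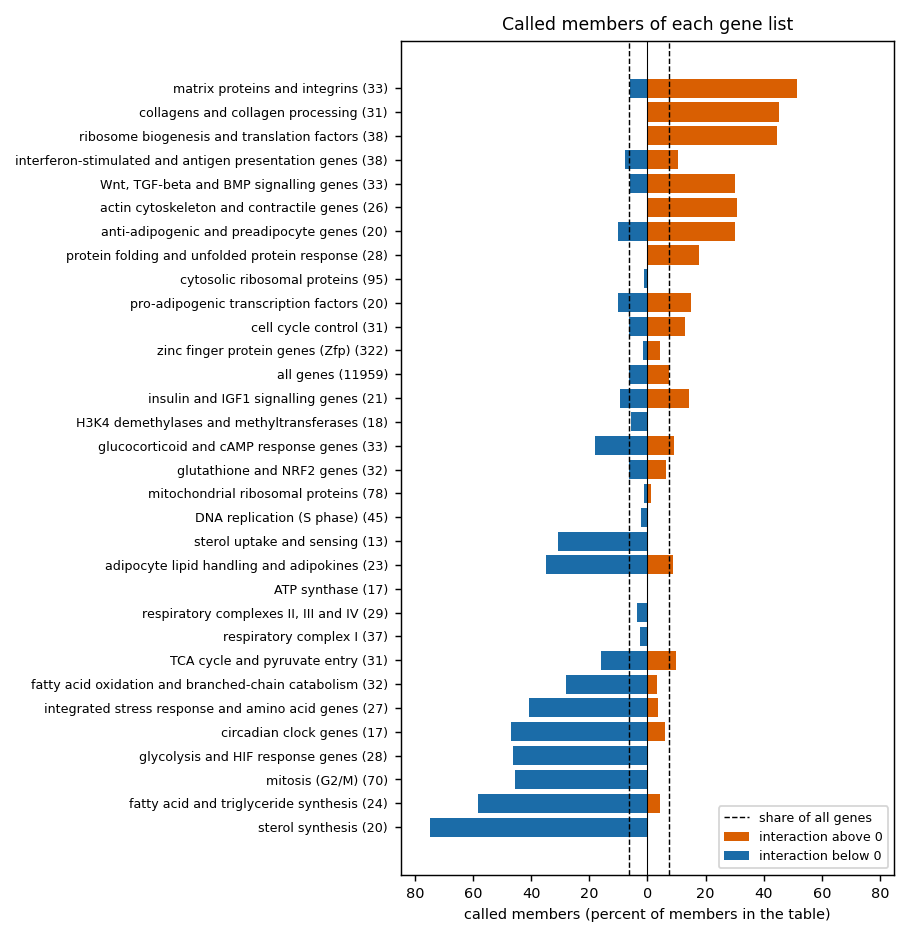
Called members of each gene list with over 10 genes in the table, and of all genes, as a percent of its members in the table, with interactions above 0 to the right and below 0 to the left; the number of members in the table stands in parentheses. Dashed lines give the shares over all genes, 7.36% and 6.49%. Sterol synthesis extends farthest to the left, at 75%, and matrix proteins and integrins farthest to the right, at 51.5%.

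Genes of sterol synthesis had the highest share of negative calls among the lists with at least 7 members in the table. Of 20 enzymes of the pathway from acetyl-CoA to cholesterol, 15 had a called negative interaction and 0 a positive one, and the list's median was -0.58. The median C70 effect went from -0.35 at day 1 to -0.99 at day 2. Between the days 19 of the 20 rose in vehicle, against 22.3% of all genes. The list's median change in vehicle was 1.62 on the log2 scale. After C70 14 rose, against 18.8% of all genes, and 1 fell, Tm7sf2, against 18.1%. The median change after C70 was 1.07. In these bulk samples, fewer cells of a type and less RNA per cell cannot be told apart.

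Mvd, which makes isopentenyl diphosphate from mevalonate diphosphate, was at 15.6, 12.8 and 12.9 CPM in vehicle and at 12.4, 9.99, 10.8 and 11.3 CPM in C70 samples at day 1. At day 2 it was at 76.5, 67.7 and 70.9 CPM in vehicle and at 24.98, 26.6, 22.9 and 21.9 CPM after C70. The groups did not overlap on either day, but the difference was small at day 1 and each C70 sample was far below each vehicle sample at day 2, with an interaction of -1.27 ± 0.16 (adjusted P = 1.4e-06). Pmvk, the kinase one step before it, was at 9.40, 11.6 and 9.94 CPM in vehicle and 9.50, 8.96, 11.8 and 9.05 CPM after C70 at day 1, when the groups overlapped. At day 2 Pmvk was at 33.0, 30.2 and 35.7 CPM in vehicle and 12.4, 14.2, 10.8 and 14.8 CPM after C70, and its interaction was -1.26 ± 0.19. Fdps, farnesyl diphosphate synthase, had the largest interaction in the list, -1.44 ± 0.24, at low levels of 9.18 ± 0.12 CPM (SD, n = 3) in vehicle and 2.45 ± 0.12 CPM (n = 4) after C70 at day 2.

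Dhcr7, which carries out a last step of cholesterol synthesis, took a different course. It was at 69.1, 66.5 and 61.6 CPM in vehicle and at 118.2, 133.1, 133.4 and 126.5 CPM after C70 at day 1, and at 191.0, 177.6 and 171.8 CPM in vehicle and 145.0, 152.9, 151.5 and 145.9 CPM after C70 at day 2. Every C70 sample was above every vehicle sample at day 1 and below at day 2, although the day 2 difference of -0.28 did not pass the fold change threshold. Tm7sf2, a sterol reductase, had C70 effects of 0.54 and -0.51 on the days. Other called members had a negative effect at day 1 and a lower one at day 2: Fdft1 (-0.42 and -1.38), Sqle (-0.49 and -1.10) and Hmgcs1 (-0.14 and -0.79). Idi1, Ebp, Cyp51, Mvk and Acat2 were not called. Acat2 had the only positive value, 0.04, with C70 effects of -0.77 and -0.73.

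Around this pathway, 4 of 13 genes of sterol uptake and sensing had a called negative interaction (30.8%, against 6.49% of all genes) and 0 a positive one, with a median of -0.06. Insig1, a sterol-regulated retention factor for SREBP, rose in vehicle from a mean of 72.7 to 617 CPM and after C70 from 46.1 to 200.4 CPM, with an interaction of -0.97 ± 0.08. Srebf2, the sterol-responsive SREBP, had C70 effects of -0.20 and -0.32 and was not called.

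The promoters of the called members with the largest interactions for which the RefSeq table (GRCm38.p6) has an entry are given for sterol synthesis and for mitosis, since many members of each were called in 1 direction. Each runs from 250 bases before to 50 after the listed start, 5′ to 3′ on the gene's strand. Capitals mark matches, on either strand, to TTTGAA (the core of the cell cycle homology region of G2/M genes), CCAAT (the NF-Y box), TCACNCCAC (a sterol regulatory element) or CACGTG (an E-box); no match shown overlaps another. Mvd is at chr8:122443373-122443672 on the minus strand, the 2 listed starts of Pmvk are at chr3:89454291-89454590 and chr3:89459321-89459620 on the plus strand, and Ccnb2 and Cenpf are at chr9:70421505-70421804 and chr1:189688037-189688336 on the minus strand.
Mvd: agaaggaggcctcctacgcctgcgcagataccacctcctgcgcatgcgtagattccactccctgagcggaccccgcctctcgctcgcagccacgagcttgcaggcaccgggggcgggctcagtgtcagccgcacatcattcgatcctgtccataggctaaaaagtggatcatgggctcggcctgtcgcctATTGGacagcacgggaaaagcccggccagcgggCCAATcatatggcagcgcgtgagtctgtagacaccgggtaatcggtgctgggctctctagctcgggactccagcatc
Pmvk, upstream start: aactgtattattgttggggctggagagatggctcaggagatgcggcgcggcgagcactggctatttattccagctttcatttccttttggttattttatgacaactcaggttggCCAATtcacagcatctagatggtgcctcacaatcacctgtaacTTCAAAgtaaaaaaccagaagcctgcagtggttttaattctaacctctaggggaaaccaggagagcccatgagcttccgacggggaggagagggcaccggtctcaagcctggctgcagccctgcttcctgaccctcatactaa
Pmvk, downstream start: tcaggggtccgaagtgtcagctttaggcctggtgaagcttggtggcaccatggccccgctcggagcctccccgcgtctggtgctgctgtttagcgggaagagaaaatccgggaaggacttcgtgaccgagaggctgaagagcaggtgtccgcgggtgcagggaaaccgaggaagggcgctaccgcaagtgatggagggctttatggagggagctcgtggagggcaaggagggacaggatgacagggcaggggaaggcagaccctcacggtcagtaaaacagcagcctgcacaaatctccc
Ccnb2: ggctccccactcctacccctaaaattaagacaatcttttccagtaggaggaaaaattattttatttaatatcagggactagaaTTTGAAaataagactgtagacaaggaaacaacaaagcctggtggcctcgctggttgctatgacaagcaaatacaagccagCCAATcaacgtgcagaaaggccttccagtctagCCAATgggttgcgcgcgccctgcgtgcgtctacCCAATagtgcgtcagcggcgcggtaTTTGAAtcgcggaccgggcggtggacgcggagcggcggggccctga
Cenpf: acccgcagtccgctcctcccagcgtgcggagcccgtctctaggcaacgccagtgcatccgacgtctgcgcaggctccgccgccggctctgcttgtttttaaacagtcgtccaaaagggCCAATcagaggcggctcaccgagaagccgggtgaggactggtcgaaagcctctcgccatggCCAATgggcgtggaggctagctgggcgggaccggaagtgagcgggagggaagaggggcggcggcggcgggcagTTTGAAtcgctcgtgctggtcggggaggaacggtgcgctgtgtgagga

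Mvd held CCAAT matches that begin 60 and 27 bases before the start, and Ccnb2 held 3 CCAAT matches and 2 TTTGAA matches, 1 of them 5 bases into the transcript. Cenpf held 2 CCAAT matches and a TTTGAA match 3 bases into the transcript. Of all 32851 promoters in the table, 17.9% held TTTGAA, 37.4% CCAAT, 1.24% TCACNCCAC and 7.15% CACGTG. A promoter was matched for 9007 of the 11959 genes, with the start nearest the annotated gene start used for each, and TTTGAA was in 11.5% and CCAAT in 39.7% of these. In the mitosis list TTTGAA was in 39 of 60 matched promoters (65.0%) and CCAAT in 44 (73.3%), against 4 of 37 (10.8%) and 24 of 37 (64.9%) in the S phase list. In the sterol synthesis list CCAAT was in 13 of 15 matched promoters (86.7%), TCACNCCAC in 1, CACGTG in 2 and TTTGAA in 1. Within the mitosis list the share with TTTGAA was 67.9% of the 28 called members that matched. These are counts of letters and were not tested.

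Fatty acid and triglyceride synthesis followed the same direction. Of 24 genes, 14 had a called negative interaction (58.3%) and 1 a positive one (4.17%), with a median of -0.43, and the median C70 effect went from -0.17 to -0.66. Fasn, fatty acid synthase, was at 908, 949.9 and 844 CPM in vehicle and 798, 816, 782 and 788 CPM after C70 at day 1. At day 2 it was at 2699.6, 2726 and 2594 CPM in vehicle and 1348, 1379.8, 1405 and 1372 CPM after C70, so C70 samples were lower on both days by amounts that differed: the interaction was -0.78 ± 0.12 (adjusted P = 1.8e-05).

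Thrsp, a regulator of lipogenesis, had the largest interaction of this list, -1.44 ± 0.27. It was at 97.1, 109.9 and 101.8 CPM in vehicle and at 17.1, 21.1, 17.1 and 13.99 CPM after C70 at day 2, with means of 3.78 and 1.72 CPM at day 1. Acss2, which makes acetyl-CoA from acetate (-1.10 ± 0.11), Scd1, a fatty acid desaturase (-0.96 ± 0.09), and the citrate carrier Slc25a1 (-0.92 ± 0.10) were also called, as was Acaca, acetyl-CoA carboxylase (-0.44 ± 0.12). Elovl6, a fatty acid elongase, was the 1 gene called in the other direction, with C70 effects of -1.37 and -0.70. The glycerolipid genes Gpam (-0.14 ± 0.10), Lpin1 (-0.07 ± 0.09), Dgat2 (-0.02) and Agpat2 (-0.00) were not called. Agpat2 had C70 effects of -1.06 at day 1 and -1.06 at day 2.

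For adipocyte genes the result was mixed. Of 23 genes of lipid handling and adipokines, 8 had a called negative interaction (34.8%) and 2 a positive one (8.70%), with a median of -0.11, after vehicle rises with a median of 2.60. The median interaction was -0.07 without vehicle replicate 3 of day 1 and -0.16 without vehicle replicate 2 of day 1. With quantile normalization and limma, 3 were called below 0. Among those called below 0 were Bscl2, the lipid droplet protein seipin (-0.51), and Pck1, an enzyme of glyceroneogenesis (-1.23), whose call was lost without any 1 of 5 libraries. Fabp4, a fatty acid carrier, had C70 effects of -0.90 on day 1 and -0.98 on day 2, with an interaction of -0.08 ± 0.11. Lpl, lipoprotein lipase, had -0.06 ± 0.06 (-0.23 with quantile normalization and limma) and the lipid droplet gene Plin1 had -0.11 ± 0.08, and neither was called. Cd36, a fatty acid transporter, had a called positive interaction of 0.44 ± 0.09, with C70 effects of -0.87 and -0.43. Adipoq had 0.32 ± 0.15 and was not called (adjusted P = 0.12), with C70 effects of -1.22 and -0.90; with quantile normalization and limma it was called at 0.44, and in the 14 samples alone at 0.35.

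Of 20 pro-adipogenic transcription factors, 3 had a called positive (15%, against 7.36% of all genes) and 2 a called negative interaction (10%, against 6.49%). Their median was 0.08, and 0.03 without vehicle replicate 1 of day 2 and 0.04 without vehicle replicate 2 of day 1. Pparg was at 78.1, 83.4 and 78.6 CPM in vehicle and 51.9, 52.6, 54.6 and 52.5 CPM after C70 at day 1, and at 164.6, 165.6 and 170.0 CPM in vehicle and 103.1, 113.9, 119.5 and 113.3 CPM after C70 at day 2. C70 samples were below all vehicle samples on both days, with effects of -0.60 and -0.57, and the interaction was 0.03 ± 0.08 (adjusted P = 0.85). Cebpa had an interaction of -0.34 ± 0.11 (adjusted P = 0.03), just past the fold change threshold. It was not called in the fit of the 14 samples alone (-0.32), nor without vehicle replicate 1 (-0.26) or C70 replicate 1 (-0.33) or 2 (-0.33) of day 1, or vehicle replicate 3 (-0.28) or C70 replicate 1 (-0.32) of day 2. Klf15, a glucocorticoid-induced factor, had -1.14 ± 0.26, and Klf5, an early factor, had 0.62 ± 0.09.

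Positive interactions were called among preadipocyte genes and extracellular matrix genes. Of 20 anti-adipogenic and preadipocyte genes, 6 were called above 0 (30%) and 2 below (10%), with a median of 0.20. Dlk1, the preadipocyte marker, was at 1018, 1034 and 1033 CPM in vehicle and 1347, 1424, 1299 and 1303 CPM after C70 at day 1, and at 158.9, 159.3 and 167.0 CPM in vehicle and 320.6, 300.8, 314.0 and 331.3 CPM after C70 at day 2. All C70 samples were above all vehicle samples on both days, and the interaction was 0.58 ± 0.13 (adjusted P = 0.0016). Thy1, a surface glycoprotein of fibroblasts, was at 54.1, 47.9 and 48.0 CPM in vehicle and 131.6, 144.3, 131.9 and 136.3 CPM after C70 at day 1. At day 2 Thy1 was at 12.6, 10.4 and 11.5 CPM in vehicle and 75.6, 75.2, 71.2 and 75.4 CPM after C70, with an interaction of 1.252 ± 0.19. Sox9, a factor that restrains adipogenesis, had 0.78 ± 0.09, and Id2, an inhibitor of helix-loop-helix factors, had -1.18 ± 0.26.

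Of 31 genes for collagens and their processing, 14 were called above 0 (45.2%) and 0 below, with a median of 0.32. The list fell in vehicle by a median of 0.68 between the days and after C70 by 0.36. Col1a1, the main fibrillar collagen chain, was at 3131, 3510.2 and 3545 CPM in vehicle and at 2436, 2898, 2746 and 2583 CPM after C70 at day 1. At day 2 it was at 913, 915 and 852 CPM in vehicle and at 1556, 1414, 1556 and 1501 CPM after C70. C70 samples were the lower ones at day 1 and the higher ones at day 2, with no overlap, and the interaction was 1.10 ± 0.12. Col12a1, a fibril-associated collagen, had C70 effects of -0.29 and 0.58, and Col16a1 had 0.41 and 1.24.

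Of 33 matrix proteins and integrins, 17 were called above 0 (51.5%) and 2 below (6.06%), with a median of 0.33. Tnc, tenascin C, had 1.04 ± 0.12, and Dcn, decorin, had 0.83 ± 0.13 with C70 effects of 1.74 and 2.57. Both called negative interactions were those of integrin chains, Itga6 (-1.04 ± 0.10) and Itga7 (-0.98 ± 0.11), which rose in vehicle by 2.37 and 3.25. Of 26 actin and contractile genes 8 were called above 0 (30.8%) and 0 below, among them Cald1, caldesmon (0.61 ± 0.07). Of 33 Wnt, TGF-beta and BMP genes 10 were called above 0 (30.3%) and 2 below (6.06%), with a median of 0.24; without vehicle replicate 3 of day 1, 6 were called above 0. Fst, the activin antagonist follistatin, went from -0.34 to 0.51, and Inhba, an activin subunit, from 0.85 to 0.11.

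**Figure D3:**
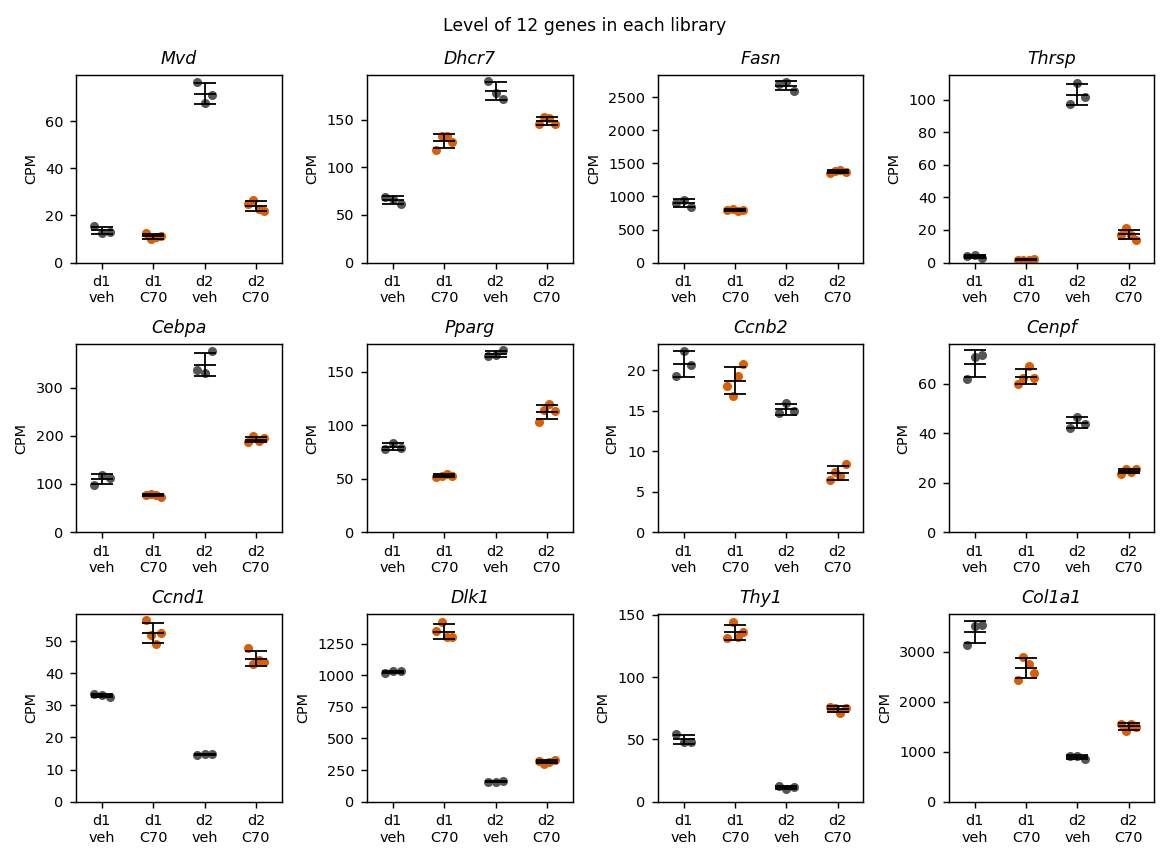
Level in CPM (y axis, from 0) of 12 genes in each of the 14 libraries, by day and treatment; points are libraries, grey for vehicle and orange for C70, and bars give the mean and SD. Mvd, Fasn and Thrsp separate the treatments mostly at day 2, Pparg separates them on both days, and Col1a1 and Dhcr7 change order between the days.

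All 70 listed genes of G2 and M phase were in the table, and 32 had a called negative interaction (45.7%) and 0 a positive one, with a median of -0.36; 68 of the 70 values were negative. The number called was 11 with limma-trend and 17 with quantile normalization and limma. The median C70 effect went from -0.40 to -0.81. Of 45 genes of DNA replication, 1 was called below 0, the histone chaperone gene Chaf1b (-0.61, not called with limma-trend), and 0 above, although 7 had an unadjusted P under 0.05; DESeq2 and voom also called 1. The median C70 effects of this list were -0.39 and -0.45. The difference between these lists was not tested.

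Ccnb2, a cyclin of mitotic entry, was at 19.2, 22.4 and 20.6 CPM in vehicle and 17.98, 16.8, 19.2 and 20.7 CPM after C70 at day 1, when the groups overlapped. At day 2 it was at 14.7, 15.96 and 14.9 CPM in vehicle and 6.404, 7.48, 6.88 and 8.40 CPM after C70. All C70 samples were then below all vehicle samples, and the interaction was -0.91 ± 0.13 (adjusted P = 5.7e-06). Cenpf, a kinetochore protein, was at 61.8, 71.0 and 71.6 CPM in vehicle and 59.8, 62.6, 67.2 and 62.3 CPM after C70 at day 1, and at 42.2, 46.8 and 43.9 CPM in vehicle and 23.6, 25.5, 24.2 and 25.4 CPM after C70 at day 2, with an interaction of -0.73 ± 0.09. Ttk, a spindle checkpoint kinase, had -0.69 ± 0.17.

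Ccna2, the cyclin of S and G2 phase, had C70 effects of -0.31 and -0.82 and an interaction of -0.50 ± 0.14 (adjusted P = 0.0085); the adjusted P was 0.39 with limma-trend and 0.26 with quantile normalization and limma. Ccnb1 (-0.35 ± 0.13, adjusted P = 0.054) was just short of a call and was called in 8 of the alternatives, among them without C70 replicate 4 of day 1 (-0.38), vehicle replicate 1 of day 2 (-0.40) and C70 replicate 3 of day 2 (-0.40). Cdc20, an activator of the anaphase-promoting complex (-0.30 ± 0.10, adjusted P = 0.039), missed the threshold on size and passed it when replicate 2 of any 1 group was left out, at -0.37 and -0.34 for vehicle and C70 at day 1 and -0.34 and -0.32 at day 2.

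Among regulators of the cell cycle, 4 of 31 were called above 0 (12.9%, against 7.36% of all genes) and 2 below (6.45%, against 6.49%). Ccnd1, the G1 cyclin D1, was at 33.4, 33.3 and 32.6 CPM in vehicle and 56.5, 51.8, 49.1 and 52.6 CPM after C70 at day 1, and at 14.6, 14.8 and 14.9 CPM in vehicle and 47.9, 42.9, 44.0 and 43.4 CPM after C70 at day 2. All C70 samples were above all vehicle samples on both days, with a wider gap at day 2 and an interaction of 0.93 ± 0.13. Cdk6, a kinase partner of D cyclins (-0.43 ± 0.14, adjusted P = 0.032), and Cdkn2d, an inhibitor of such kinases (-0.44 ± 0.16, adjusted P = 0.046), were called below 0. The call of Cdk6 was lost without 7 of the single libraries and that of Cdkn2d without 11. Other G1 genes that the study discusses were not called: Ccnd2 (-0.18 ± 0.09), Ccnd3 (-0.02 ± 0.10), Ccne1 (0.28 ± 0.10), Ccne2 (-0.04 ± 0.13) and Cdk4 (0.25 ± 0.08). The sign of the values for Ccnd3 and Ccne2 changed with quantile normalization.

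**Figure D4:**
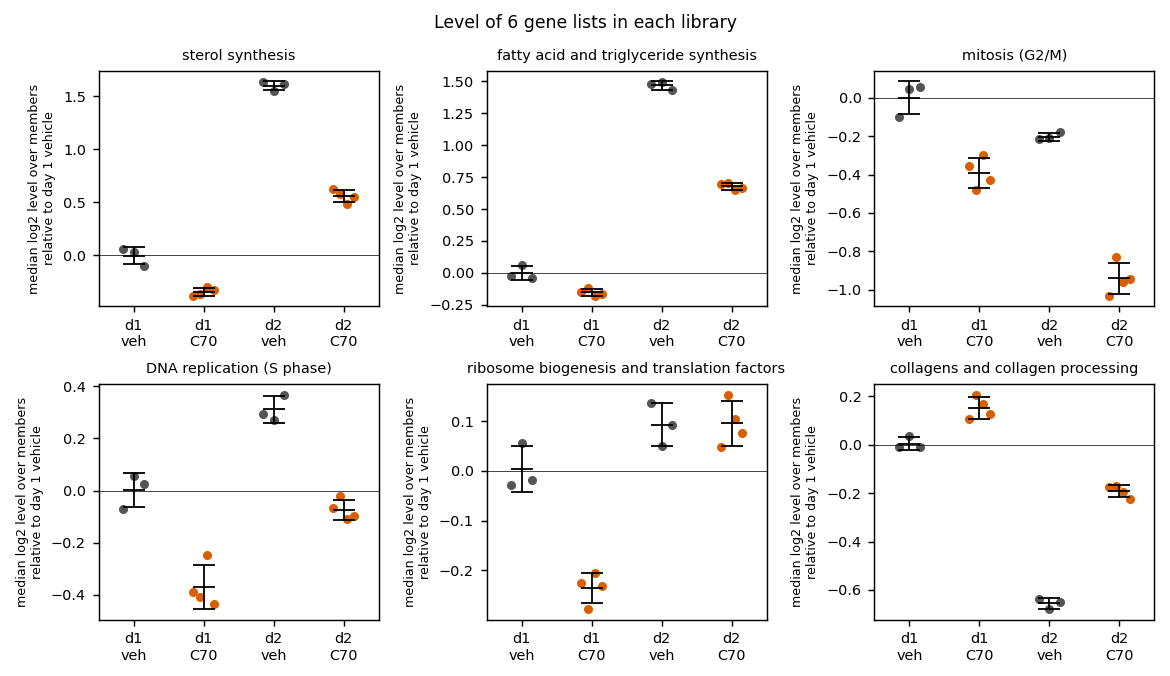
Median log2 level over the members of 6 gene lists, relative to the mean of day 1 vehicle (y axis), in each of the 14 libraries; bars give the mean and SD over libraries. The sterol synthesis list lies between 1.55 and 1.63 in day 2 vehicle and between 0.49 and 0.63 in day 2 C70 libraries, and the mitosis list between -0.22 and -0.18 and between -1.03 and -0.83.

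Genes of ribosome biogenesis and translation had positive interactions. Of 38, 17 were called above 0 (44.7%, against 7.36% of all genes) and 0 below, and all 38 values were positive, with a median of 0.31. Their median C70 effect was -0.23 at day 1 and 0.01 at day 2. Of the 38, 13 were called lower at day 1, against 7.8% of all genes. At day 2, 1 was called lower, against 13.6% of all genes, and 1 higher, against 16.9%. Rrp9, a component of the U3 processing complex, was at 24.6, 29.02 and 25.9 CPM in vehicle and 15.7, 17.4, 17.2 and 16.4 CPM after C70 at day 1, and at 26.7, 26.7 and 30.3 CPM in vehicle and 26.5, 27.7, 29.03 and 25.3 CPM after C70 at day 2. The groups were apart at day 1 and overlapped at day 2, and the interaction was 0.63 ± 0.12 (adjusted P = 0.00022). Nop56, a nucleolar protein, and Dkc1, the pseudouridine synthase dyskerin, had 0.53 ± 0.08 and 0.49 ± 0.09. The interactions of this list were small: with a fold change over 1.5, 1 was called. The list of cytosolic ribosomal proteins matched 95 genes by name, of which 9 are Rps6k kinase genes; 0 of the other 86 were called by edgeR, DESeq2, limma-trend or voom, 3 had an unadjusted P under 0.05, and 78 of them were positive with a median of 0.12. Of 28 protein folding genes 5 were called above 0 (17.9%, against 7.36% of all genes) and 0 below, among them Calr, an endoplasmic reticulum chaperone (0.46 ± 0.07). The median C70 effect of the protein folding list was -0.16 at day 1 and -0.01 at day 2.

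Many circadian clock genes had negative interactions. Of 17, 8 were called below 0 (47.1%) and 1 above (5.88%), and the median C70 effect went from 0.33 to -0.18. Rora, a nuclear receptor that activates clock genes, was at 18.5, 17 and 15.5 CPM in vehicle and 25.3, 23.6, 24.9 and 23.1 CPM after C70 at day 1, and at 74.0, 74.9 and 67.6 CPM in vehicle and 47.8, 45.05, 43.5 and 45.5 CPM after C70 at day 2. C70 samples were all higher at day 1 and all lower at day 2, with an interaction of -1.18 ± 0.15. The repressor Nr1d1 (-1.01 ± 0.13) and Per3 (-1.23 ± 0.19) were also called. Cry1, a repressor, was the 1 gene called above 0 (0.50 ± 0.18, adjusted P = 0.048), with C70 effects of -0.64 and -0.14. Arntl (-0.11), Clock (-0.13) and Per1 (-0.08) were not called. The hour of collection is not given in the sources used here.

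Glycolysis and hypoxia response genes had a median C70 effect of 0.04 at day 1 and -0.32 at day 2, and of 28, 13 were called below 0 (46.4%) and 0 above. Bnip3, a mitophagy receptor induced by HIF, was at 81.6, 88.7 and 72.1 CPM in vehicle and 93.0, 76.9, 79.2 and 83.0 CPM after C70 at day 1. At day 2 it was at 187.6, 199.8 and 189.2 CPM in vehicle and 95.7, 99.2, 96.6 and 93.9 CPM after C70. The groups overlapped at day 1 and were far apart at day 2, with an interaction of -1.04 ± 0.11. The oxygen sensors Egln3 (-0.78 ± 0.13) and Egln1 (-0.66 ± 0.10) and the glycolytic enzymes Hk2 (-0.65), Pgk1 (-0.57), Ldha (-0.54) and Aldoa (-0.46) were called as well. Hif1a (0.07) was not called.

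Of 27 genes of the integrated stress response and amino acid metabolism, 11 were called below 0 (40.7%) and 1 above (3.70%), with a median of -0.27. Trib3 was at 2.60, 1.83 and 2.21 CPM in vehicle and 2.83, 2.90, 3.282 and 3.46 CPM after C70 at day 1, and at 27.5, 26.4 and 27.4 CPM in vehicle and 12.5, 13.9, 11.5 and 10.8 CPM after C70 at day 2, with C70 above at day 1 and below at day 2. Pycr1, a proline synthesis enzyme, was at 9.95, 9.96 and 10.1 CPM in vehicle and 26.97, 24.1, 26.4 and 27.5 CPM after C70 at day 1. At day 2 Pycr1 was at 9.04, 7.90 and 8.34 CPM in vehicle and 9.45, 8.49, 9.28 and 9.27 CPM after C70, and the groups overlapped. Its C70 effect was called at day 1 alone, and its interaction was -1.27 ± 0.13. Asns, asparagine synthetase, went from 0.02 to -0.85. Atf4, the factor that drives these genes, had -0.24 and -0.50 and was not called. Slc7a11, a cystine transporter, had 5 reads in all in the 3 vehicle libraries of day 1 and 407 in those of day 2, so its fitted difference is no measure of size.

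Of 32 genes of mitochondrial fatty acid oxidation and branched-chain amino acid breakdown, 9 were called below 0 (28.1%, against 6.49% of all genes) and 1 above (3.12%), with a median of -0.23; with a fold change over 1.5, 0 were called below 0. The 1 above was Cpt1a, which admits fatty acids to mitochondria (0.53 ± 0.09). Of 31 genes of the citric acid cycle and pyruvate entry, 5 were called below 0 (16.1%) and 3 above (9.68%, against 7.36%). The lists of respiration and mitochondrial translation had shares below those of all genes in both directions. Of 37 genes of respiratory complex I, 1 was called below 0 (Ndufs3, -0.36, a call lost without vehicle replicate 1 of day 1) and 0 above, with a median of -0.15; 34 of the 37 were negative. Complexes II to IV had 1 of 29 called (Uqcrq, -0.44) and mitochondrial ribosomal proteins 2 of 78 (Mrps6, 0.44, and Mrpl45, -0.36, a call lost without any 1 of 7 libraries). ATP synthase had 0 of 17 and the mitochondrially encoded genes 0 of 7 called by edgeR, DESeq2, limma-trend or voom, with 4 and 1 at an unadjusted P under 0.05. Negative values numbered 27 of 29 in complexes II to IV, 16 of 17 in ATP synthase and 52 of 78 among mitochondrial ribosomal proteins. The C70 effect was called lower for 3 members at day 1 and 20 at day 2 in complex I, and 3 and 13 in complexes II to IV. It was 2 and 9 in ATP synthase and 9 and 25 among mitochondrial ribosomal proteins, against 7.8% and 13.6% of all genes. The carriers Slc25a4 (0.19 ± 0.08) and Slc25a5 (-0.09 ± 0.07) were not called.

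**Figure D5:**
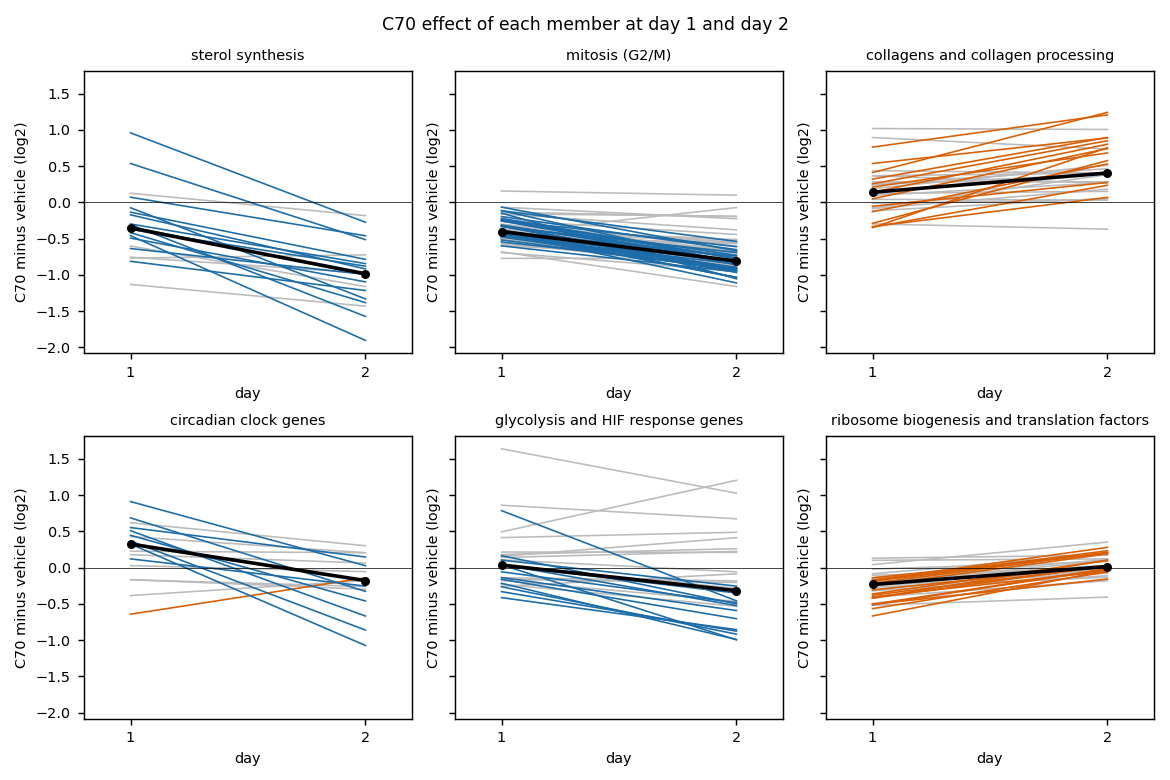
Log2 difference between C70 and vehicle at day 1 and day 2 (x axis) for each member of 6 gene lists, as lines; blue and orange lines are members called below and above 0, grey lines were not called, and black points give the list's median. The medians go from -0.35 to -0.99 for sterol synthesis, from 0.33 to -0.18 for clock genes and from -0.23 to 0.01 for ribosome biogenesis.

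The target enzymes themselves were not called: Kdm5a had an interaction of -0.02 ± 0.13, Kdm5b -0.11 ± 0.08 and Kdm5c -0.10 ± 0.09. A compound that blocks an enzyme need not change its RNA. Of 18 H3K4 demethylase and methyltransferase genes 1 was called, which is 5.56% below 0 against 6.49% of all genes. This was Prdm9 (-0.84 ± 0.22), and that call was lost with quantile normalization and limma.

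The remaining lists had calls in both directions. Of 38 interferon and antigen presentation genes 4 were called above 0 (10.5%) and 3 below (7.89%). Their median was 0.27, with 31 of the 38 values positive and 7 negative. Among those called above 0 were Ifi44 (1.23, a call lost under 2 of the alternatives), Parp14 (0.80) and Bst2 (0.72), which tethers virus particles. The interferon-induced genes Usp18 (-0.90) and Irf7 (-0.85) were called below 0, and these calls were lost without any 1 of 9 libraries for Usp18 and without vehicle replicate 3 of day 1 for Irf7. Of 33 glucocorticoid and cAMP response genes 3 were called above 0 (9.09%) and 6 below (18.2%), against 7.36% and 6.49% of all genes: the kinase gene Sik1 (0.53) and the glucocorticoid-induced Tsc22d3 (0.36) were above, and Lcn2, lipocalin 2 (-1.08), and the metallothionein genes Mt2 (-1.08) and Mt1 (-0.64) below. Glutathione and NRF2 genes had 2 of 32 above (6.25%) and 2 below (6.25%), among them Gstm2 (0.71) and the pentose phosphate enzyme Tkt (-0.74). Insulin and IGF1 signalling genes had 3 of 21 above (14.3%) and 2 below (9.52%), among them Igf2r (0.57) and the insulin receptor gene Insr (-0.45). Of 322 Zfp genes, 14 were called above 0 (4.35%) and 5 below (1.55%).

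Of the genes with the largest interactions, Crocc2 was at 30.8, 33.9 and 31.2 CPM in vehicle and 236, 217, 266 and 268 CPM after C70 at day 1, and at 10.8, 9.37 and 8.65 CPM in vehicle and 271, 285, 273 and 278 CPM after C70 at day 2. It fell in vehicle by 1.73 on the log2 scale and was not called as changed after C70. Capn6, a calpain-like protein that binds microtubules, was at 802, 768 and 791 CPM in vehicle and 781, 833, 758 and 775 CPM after C70 at day 1, when the groups overlapped. At day 2 Capn6 was at 203, 170.4 and 174 CPM in vehicle and 415, 400.0, 426 and 421 CPM after C70, with no overlap and an interaction of 1.19 ± 0.08. Peg10, an imprinted gene of retrotransposon origin, was at 2049, 2476 and 2216 CPM in vehicle and 789, 889, 893 and 851 CPM after C70 at day 1. At day 2 Peg10 was at 2366, 2810.1 and 2550.4 CPM in vehicle and 2140.2, 2236, 2153 and 2094 CPM after C70, still without overlap but with a smaller gap, and an interaction of 1.14 ± 0.15. Cdsn was read 12 to 22 times per vehicle library at day 1 and 106 to 156 times at day 2, and 99 to 146 and 118 to 125 times after C70. Its C70 samples were therefore already at day 1 near the level that vehicle reached at day 2.

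Of the 147 genes named by the rule, 67 overlap an annotated gene on the opposite strand, among them Mvd and Cenpf, and 28 overlap one on the same strand, among them Fdps. The libraries were strand-specific, but the counting program and its use of strand are not given in the sources used here, so reads shared with such neighbours could not be separated. Ccnb2, Ccnb1, Ccnd3, Calr, Gstm2 and Slc25a5 also have named pseudogenes.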

How the data were processed

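RNA of 3T3-L1 cells was sequenced from strand-specific libraries. The authors used STAR 2.7.2a on genome build GRCm38 and edgeR (3.26.8 in the submitters' processing notes, a later version in the paper). They deposited whole-number counts per gene, unscaled, for 11959 genes. How reads were counted and genes filtered is not given in the sources used here. Symbols were found for 11953 genes.

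All 29 samples in 8 groups were fitted with group means and no covariate in edgeR 4.0.16 (R 4.3.3), by the quasi-likelihood test after TMM scaling. The depth was 16320275 to 23768093 counts per library at days 1 and 2, with factors from 1.01 to 1.08 and a common biological coefficient of variation of 0.0594. Contrasts were the interaction, C70 against vehicle at each day and day 2 against day 1 in each treatment. Within each contrast, Benjamini-Hochberg adjustment of P covered all genes. Lists are described by counts and medians and have no test of their own. On simulated data with 11959 genes, the interaction test recovered 92 of 100 genes changed 2-fold and 66 of 100 changed 1.5-fold, with 7 false calls. The simulated counts were drawn independently from the fitted spread, and only these changed genes had an interaction, far fewer than the 1656 called here. These rates may therefore differ in the real data.

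Genes named were the 8 largest called interactions in each direction above the median of expression over all samples, up to 4 called members of each of the 36 lists, 24 genes the study discusses, up to 4 genes of the classes appearing, lost or reversed, and the cell type markers; 147 in all. Other list members are named after their values were seen. The members and lists were chosen with earlier results of these data known. Alternatives were other thresholds, scaling, tools (DESeq2 1.42.0, limma 3.58.1), filters, samples, a replicate block and leaving out each library. Counts per list under these alternatives were added after seeing the data. Promoters are of the 2 called members with the largest interaction that the RefSeq table holds, and the choice of 1 start per gene for the motif shares was made after seeing the data. Positions are from GENCODE (GRCm38), and plots were drawn with matplotlib 3.10.9. Some list members are not reported here.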

Additional observations from a re-analysis of the deposited data

Results flagged for a closer look

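For 10 named genes the C70 effect was called on both days in opposite directions, and the difference between the days was tested by the interaction. It was -1.24 for Ankrd37, 1.10 for Col1a1, -1.40 for Coq8a, 0.85 for Fst, -1.01 for Nr1d1, -1.47 for Pdzd2, -1.23 for Per3, -1.65 for Prelp, -1.18 for Rora and -2.92 for Slc7a11 on the log2 scale. Coq8a, a kinase-like protein of coenzyme Q synthesis, had C70 effects of 0.37 and -1.03, and Prelp had 1.29 and -0.36. Col1a1 and Fst went from lower to higher after C70, and the other 8 from higher to lower. The value of Slc7a11 rests on 5 reads in the vehicle libraries of day 1, ranged from -3.57 to -1.11 over the alternatives and is no measure of size.

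In 358 groups of 4 C70 libraries, over the named genes and lists, 11 had a library far from the other 3 by Dixon's test. Chance flags about 1 in 20 such groups, which is 17.9 here. At day 1 these were Cdkn2d (8.27 CPM against 7.33 to 7.43) and Mrap (1.80 CPM against 0.996 to 1.08) in replicate 1, Slc6a9 (1.92 CPM against 1.70 to 1.70) and the level of protein folding genes (-0.13 against -0.15 to -0.15 on the log2 scale) in replicate 2, and Cnn2 (33.2 CPM against 36.6 to 37.0) in replicate 3. At day 2 they were Mt2 (178 CPM against 201 to 202) in replicate 1, Lgals12 (58.3 CPM against 50.5 to 51.6) and Zfp469 (11.6 CPM against 14.8 to 15.2) in replicate 2, and Cdk4 (205 CPM against 188 to 189), Des (5.39 CPM against 4.76 to 4.86) and Thy1 (71.2 CPM against 75.2 to 75.6) in replicate 3. No library held more than 3 of them.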

How the results depend on the processing

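The interaction calls numbered 638 (303 above 0 and 335 below) with a fold change over 1.5, 455 (239 and 216) with glmTreat and 2373 (1324 above) with no fold change threshold, where the threshold itself sets how many genes pass. Other scalings, tools, filters and sample sets gave 1357 to 1920 calls, and leaving out each library gave 1439 to 1635. The labels do not say whether the replicate numbers pair the samples across groups. Of 19 correlations of the deviations of same-numbered samples, 9 were over 0.1, with a range of -0.20 to 0.28. Samples with different numbers were not compared, so these values cannot decide whether the samples are paired. With a replicate block there were 1641 calls, 869 above 0 and 772 below. Of the 126 named genes that were called, 103 were called under every alternative run on them. The changes of threshold were run on counts alone, and 14 genes, 7 of the 103 among them, are not in the fit without the 25% of genes with the lowest levels. The other 23, among them Ccna2, Cebpa, Chaf1b, Mrap, Wnt6, Ppargc1a, Cdk6, Usp18, Nr1h3 and Slc2a4, lost the call under at least 1, and 18 of them without a library. The cause was not tested. None of these 126 changed sign.

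Counts of called list members moved with a fold change over 1.5 and with glmTreat, respectively, to 11 and 4 for mitosis, 7 and 8 for collagens, 9 and 9 for matrix proteins, 2 and 2 for actin genes, 5 and 5 for the integrated stress response, 5 and 5 for glycolysis, 1 and 1 for ribosome biogenesis, 3 and 2 for Wnt and TGF-beta genes, 3 and 3 for zinc finger genes, 3 and 0 for adipocyte lipid handling and 0 and 0 for fatty acid oxidation, which had 15 with no fold change threshold. Fatty acid synthesis had 9 with a fold change over 1.5 and the clock genes 5 with glmTreat. Mitosis had 11 with limma-trend and 17 with quantile normalization, adipocyte lipid handling 3 with quantile normalization, and zinc finger genes 8 without the 25% of genes with the lowest levels. Without single libraries the Wnt and TGF-beta genes had 6 to 11.

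Of the genes that were not called, 6 changed sign. With quantile normalization the interaction of Ccnd3 was 0.0386. With quantile normalization that of Ccne2 was 0.0300, that of Fabp4 0.0318, that of Kdm5a 0.00805 and that of Pparg -0.0106. In the 14 samples alone the interaction of Kdm5a was 0.0026, and 0.0024 with the replicate block. Without single libraries the values were -0.0501 to 0.0153 for Ccnd3, -0.10 to 0.0276 for Ccne2, -0.0588 to 0.0145 for Kdm5a, -0.0230 to 0.11 for Pdgfrb and -0.000944 to 0.0694 for Pparg.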
